A study of Mus musculus with 8 samples.

Results

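Scn4b, Scn2b and Tmprss4 lie next to each other on mouse chromosome 9, and their RNA was lower in transformed pro-B cells after treatment with dTAG-13. The 3 genes were found by their names among 47937 gene IDs in the count tables. They had been picked because their reads were lower after treatment in these same libraries, so their levels and fold changes are given here as a description, without a test. The exonic and intronic reads both belong to that choice.

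RNA came from cultured pro-B cells, immature B-lymphocyte precursors, that had been immortalised with the Abelson virus (A-MuLV). Their genotype is EBF1-dTAG_N: the cells' own EBF1, a transcription factor that B-lineage commitment needs, was replaced by an introduced gene for EBF1 with a dTAG degron. The comparison is between 4 libraries of cells given the degrader dTAG-13 at 0.5 µM for 6 h and 4 libraries of cells given DMSO, and it asks how RNA levels change once tagged EBF1 is degraded. Sample titles list the DMSO libraries at 0 h, whereas their treatment label reads 6 h of DMSO. All 8 libraries carry the tagged protein, so an effect of the compound itself and an effect of losing EBF1 cannot be told apart. The labels call the replicates biological, and whether the cells are 1 clone or several is not given in the sources used here. In bulk RNA, fewer cells that express a gene and less of its RNA per cell cannot be told apart either.

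Voltage-gated sodium channels consist of a large pore-forming alpha subunit and smaller beta subunits, which cross the membrane and carry an extracellular immunoglobulin domain. Scn2b and Scn4b encode the beta2 and beta4 subunits, which are joined to the alpha subunit by a disulphide bond and are known from neurons and muscle, where they tune channel gating and cell adhesion. Tmprss4 encodes a type II transmembrane serine protease known mainly from epithelia and carcinomas. EBF1 binds DNA at a palindromic sequence written TCCCNNGGGA.

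In the GENCODE vM21 annotation of GRCm38, Scn2b (ENSMUSG00000070304.11) occupies chr9:45117782-45130070 on the plus strand. Scn4b (ENSMUSG00000046480.5) follows 8.3 kb further on at chr9:45138395-45154152, also on the plus strand. Tmprss4 (ENSMUSG00000032091.14) lies another 18.6 kb on, at chr9:45172726-45204092 on the minus strand, so that the 3′ ends of Scn4b and Tmprss4 face each other. The whole locus spans 86.3 kb. Exons cover 4.66 kb of Scn2b in 4 blocks, 4.98 kb of Scn4b in 5 blocks and 2.59 kb of Tmprss4 in 13 blocks. Introns cover 7.63 kb, 10.78 kb and 28.78 kb of the same genes. The IDs given are those of the count tables. GENCODE vM21 lists each of these genes under a later version, so the spans and lengths that were counted may differ from these.

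Promoter windows from 250 bases before to 50 bases after the RefSeq start were available (GRCm38.p6) for Scn4b and Scn2b. They are shown because the pair are neighbours that were lower together, together with the window of BC049352, a gene on the plus strand that starts inside Tmprss4. Each reads 5′ to 3′ on the plus strand, and capitals mark every match to CCCNNGGG, the core of the EBF1 sequence, extended to TCCCNNGGGA where the flanking bases match as well.
Scn4b: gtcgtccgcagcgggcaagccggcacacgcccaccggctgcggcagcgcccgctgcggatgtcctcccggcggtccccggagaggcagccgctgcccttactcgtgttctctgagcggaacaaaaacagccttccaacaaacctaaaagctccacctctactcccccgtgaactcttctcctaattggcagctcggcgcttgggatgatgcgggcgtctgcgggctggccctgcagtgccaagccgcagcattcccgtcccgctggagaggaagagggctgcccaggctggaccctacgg
Scn2b: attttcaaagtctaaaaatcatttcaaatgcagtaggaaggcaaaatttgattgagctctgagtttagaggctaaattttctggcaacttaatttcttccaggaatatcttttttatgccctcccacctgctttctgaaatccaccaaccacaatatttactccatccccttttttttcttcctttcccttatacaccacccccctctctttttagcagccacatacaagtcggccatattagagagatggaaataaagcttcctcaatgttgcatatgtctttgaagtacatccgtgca
BC049352: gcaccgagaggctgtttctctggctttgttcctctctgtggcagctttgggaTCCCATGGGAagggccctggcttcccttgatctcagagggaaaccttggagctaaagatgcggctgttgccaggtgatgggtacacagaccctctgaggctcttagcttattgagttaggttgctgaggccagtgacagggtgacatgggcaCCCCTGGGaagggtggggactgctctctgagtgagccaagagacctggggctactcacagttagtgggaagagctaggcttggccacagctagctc
These windows lie at chr9:45138374-45138673 for Scn4b, chr9:45117626-45117925 for Scn2b and chr9:45195516-45195815 for BC049352. The RefSeq starts of Scn4b and Scn2b lie inside their GENCODE spans. The Scn4b window therefore lies almost wholly inside that gene as GENCODE gives it, with a start at 45138395, and shows little of the sequence upstream. The Scn4b window had a GC content of 66.3%, above that of 84.4% of the 32851 promoter windows in the table, and held 26 CpG dinucleotides. The Scn2b window had a GC content of 38.3%, above that of only 7.45% of windows, and held 2 CpG dinucleotides. Medians over all windows were 52.7% GC and 7 CpG dinucleotides, so the windows of the neighbouring beta-subunit genes lie on opposite sides of the median.

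Both motifs were searched on both strands, each being its own reverse complement. TCCCNNGGGA occurred in 297 of all 32851 windows (0.904%) and its inner part CCCNNGGG in 4491 (13.7%). Neither occurred in the Scn4b or Scn2b window, which says only that these letters are not in those 300 bases. The BC049352 window held TCCCATGGGA at chr9:45195568-45195577, with its first base 198 bases before the RefSeq start of BC049352, and a separate core match, CCCCTGGG, at chr9:45195720-45195727. The full match lies inside the span of Tmprss4, in an intron, 8.5 kb from the 5′ end of that gene. Of 13 genes within 250 kb of the locus that have a RefSeq window, BC049352 was the only one with a match to either motif. A match to these letters is a description of the sequence and does not show binding.

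Between 28982316 and 38999496 exonic reads were counted per library, and introns held 20.4 to 27.3% of the reads of whole genes. Gm26917 and Gm42418, genes that overlap ribosomal RNA, held 25.7 to 29.3% of the exonic reads, which the totals behind exonic levels include. Ebf1 RNA was present in every library, at 608 to 639 CPM (read counts scaled to the total of the library) with DMSO and 723 to 815 CPM with dTAG-13, and since the compound acts on the protein this does not measure its loss. Markers of the B lineage were detected for 13 of 13 genes, with a summed level of 4450 to 4550 CPM in DMSO and 3430 to 3660 CPM in dTAG-13 libraries. Among tissues in which the 3 genes are better known, 4 of 6 neuronal markers (Syt1, Rbfox3, Nefl and Stmn2) and 5 of 6 epithelial markers (Epcam, Krt8, Cdh1, Cldn4 and Cldn7) had no exonic read in any library. The summed neuronal list, at 236 to 259 CPM with DMSO and 345 to 355 CPM with dTAG-13, was almost wholly Tubb3, a tubulin. The 7 muscle markers summed to at most 1.20 CPM in any library, and Ckm was at 0.

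Scn4b was an abundant transcript in the control cells and was at a small fraction of that level after treatment. Its exonic level was 235, 244, 234 and 250 CPM in DMSO replicates 1 to 4, and 10.2, 11.2, 10.2 and 11.9 CPM in dTAG-13 replicates 1 to 4. The 8 libraries fell into well separated groups, with the lowest control 19.8 times the highest treated library. The means were 241 ± 7.48 CPM and 10.9 ± 0.806 CPM (SD, n = 4 each), a log2 change of -4.47 (SE 0.05), so 4.52% of the control level remained after 6 h. This rests on 32065 exonic reads in the controls and 1626 in the treated libraries. Scn4b had the 7th-largest fall among 12889 genes tested for exonic reads.

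Scn2b, its neighbour upstream, was expressed at a far lower level and was lower in every treated library. The controls had 4.21, 3.38, 3.49 and 3.73 CPM and the treated libraries 0.516, 0.383, 0.493 and 0.314 CPM. Every control library lay above every treated one, by at least 6.55 times. Mean levels of 3.71 ± 0.369 CPM and 0.427 ± 0.0950 CPM (SD, n = 4 each) gave a log2 change of -3.10 (SE 0.24), with 11.6% remaining. Only 492 control and 64 treated reads stand behind it, between 11 and 19 reads per treated library, which is reflected in an SE several times that of Scn4b.

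Tmprss4, on the opposite strand, was lower by a smaller factor. Control libraries held 3.14, 3.14, 3.18 and 2.46 CPM, and treated libraries held 0.897, 0.867, 0.830 and 0.800 CPM. DMSO replicate 4 stood below the other controls, yet still at 2.74 times the highest treated library. Group means were 2.98 ± 0.348 CPM and 0.849 ± 0.0424 CPM (SD, n = 4 each), a log2 change of -1.81 (SE 0.22), with 28.6% remaining. The value comes from 395 control and 127 treated exonic reads.

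All 3 genes were at least 3-fold lower, as were 0.675% of the genes tested, and for all 3 the groups did not overlap, as held for 13.5% of the genes tested with the treated group lower. Because the genes were chosen on this contrast, nothing follows from these counts. Across all tested genes the median log2 change was -0.003, and 28.3% of genes passed an adjusted p of 0.05 in edgeR's quasi-likelihood test, 14.0% lower and 14.3% higher. The authors' deposited table gives log2 changes of -4.47 (SE 0.05) for Scn4b, -3.07 (SE 0.26) for Scn2b and -1.75 (SE 0.23) for Tmprss4 in exonic reads, from its own model of the same libraries.

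**Figure D1:**
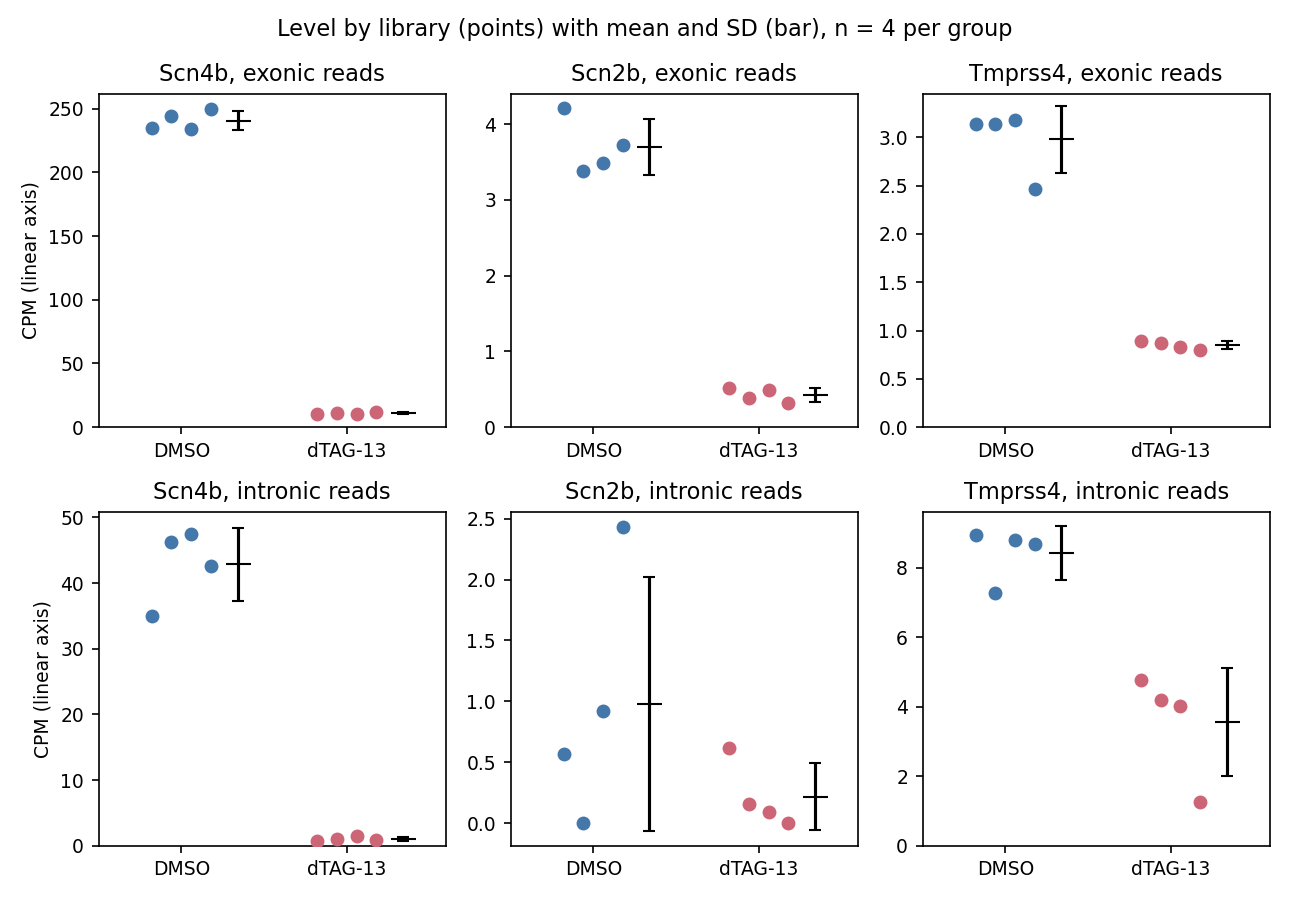
Level of Scn4b, Scn2b and Tmprss4 in each library, in CPM on linear axes, for exonic reads (top) and intronic reads (bottom), with a point per library and a bar for the mean and SD of 4 libraries. In 5 of the 6 panels every DMSO library lies above every dTAG-13 library, and in the panel of Scn2b intronic reads the groups overlap.

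Levels can be compared between genes once exonic CPM is divided by exonic length in kb. With DMSO, Scn4b stood at 48.3 ± 1.50 CPM per kb (SD, n = 4), higher than 94.8% of 12845 tested genes with a known length. Tmprss4 stood at 1.15 ± 0.135 and Scn2b at 0.796 ± 0.0792 CPM per kb, higher than 21.3% and 16.7% of those genes. The order was thus Scn4b, Tmprss4, Scn2b, with Scn4b 60.7 times the level of Scn2b per kb. After dTAG-13 the levels were 2.19 ± 0.162, 0.328 ± 0.0164 and 0.0916 ± 0.0204 CPM per kb. The order of the 3 genes was the same after treatment, while Scn4b now stood above 30.7% of genes. The ratio of Scn4b to Tmprss4 was 41.9 with DMSO and 6.67 with dTAG-13. The residual Scn4b level remained above the control level of both neighbours.

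Reads in introns come mostly from RNA that has not been spliced and so lie closer to ongoing transcription than exonic reads do. For Scn4b the intronic level was 35.0, 46.3, 47.4 and 42.6 CPM in the controls and 0.724, 0.949, 1.49 and 0.875 CPM after dTAG-13, where CPM is relative to all intronic reads of the library. No treated library came near a control, the lowest control being 23.5 times the highest treated library. Means of 42.8 ± 5.59 and 1.01 ± 0.335 CPM (SD, n = 4 each) gave a log2 change of -5.39 (SE 0.19), with 2.38% remaining, from 1807 control and 46 treated reads. Among 11229 genes tested for intronic reads this was the 3rd-largest fall.

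Tmprss4 introns, which make up most of that gene's span, gave 8.95, 7.26, 8.80 and 8.69 CPM with DMSO and 4.76, 4.19, 4.01 and 1.27 CPM with dTAG-13. The treated libraries were all lower than the controls but spread widely, with dTAG-13 replicate 4 well below the other three. The means were 8.42 ± 0.785 and 3.56 ± 1.56 CPM (SD, n = 4 each), a log2 change of -1.26 (SE 0.28). Without dTAG-13 replicate 4 the log2 change was -0.97.

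Scn2b had too few intronic reads for a change to be measured. The controls held 5, 0, 12 and 28 reads and the treated libraries 6, 2, 1 and 0, so the groups overlapped and the gene did not pass the filter on low counts. A fit without the filter gave a log2 change of -2.23 (SE 0.83) from these 45 and 9 reads. The other 2 passed it and had groups that do not overlap, as did 10.0% of genes tested for intronic reads with the treated group lower. In edgeR's test 16.8% of those genes were called, 8.50% lower and 8.26% higher. The authors' deposited table lists intronic log2 changes of -5.38 (SE 0.25) for Scn4b, -1.10 (SE 0.32) for Tmprss4 and -0.09 (SE 0.24) for Scn2b. Their Scn2b value is far from that of the fit without the filter. Their table also gives 0.09 (SE 0.24) for the nearby gene Il10ra, with 0 intronic reads with DMSO and 22 with dTAG-13. For genes with so few reads, a value near 0 there cannot be read as no change.

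In a model of both read classes the exonic minus the intronic log2 change of Scn4b was 0.93 (SE 0.23), again given as a description. Introns held 4.35, 5.23, 6.45 and 5.04% of the gene's reads in the controls and 1.83, 2.65, 3.90 and 2.58% after treatment, without overlap. For Tmprss4 the same difference was -0.50 (SE 0.36). Introns held 40.1 to 52.4% of Tmprss4 reads in the controls and 36.4 to 60.9% after treatment, so those groups overlapped. Scn4b reads were therefore almost all exonic in both conditions, whereas close to equal numbers of reads came from Tmprss4 introns and exons. These shares are not corrected for length. Tmprss4 has 28.78 kb of intron and 2.59 kb of exon, so its share does not mean that a like part of its RNA was unspliced. Over 10026 genes with both classes tested, 0.279% passed an adjusted p of 0.05 for this difference in edgeR's quasi-likelihood test.

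**Figure D2:**
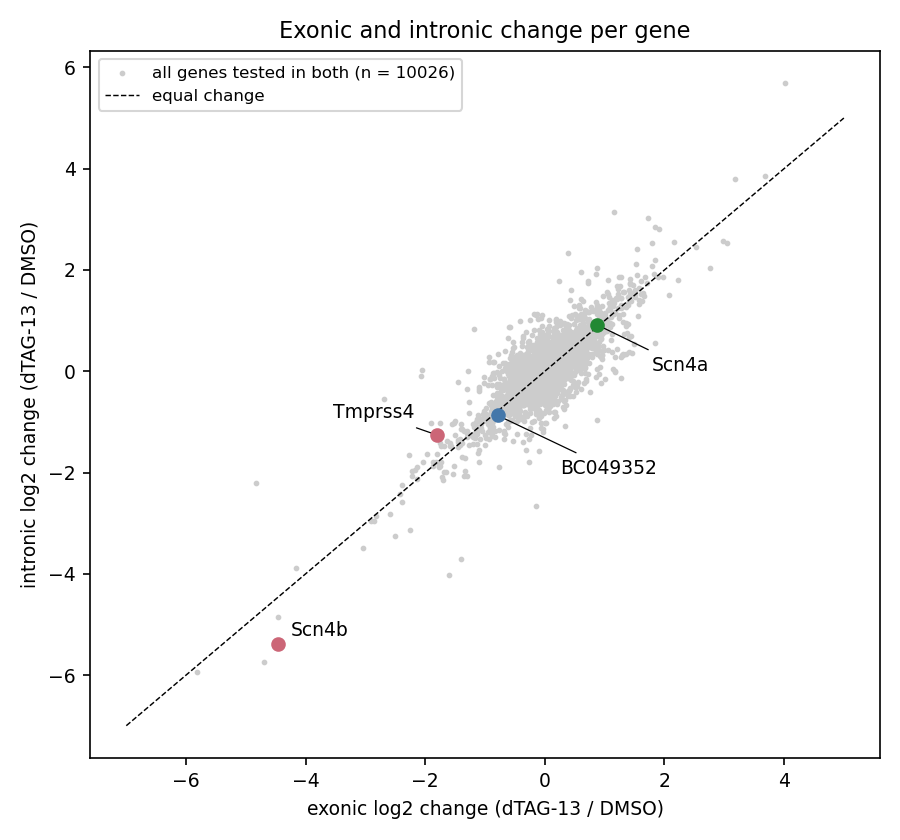
Exonic log2 change (x axis) against intronic log2 change (y axis), dTAG-13 over DMSO, with a grey point for each of 10026 genes tested in both read classes and a dashed line where the changes are equal. Scn4b lies below the line at -4.47 and -5.39, Tmprss4 above it at -1.81 and -1.26, and BC049352 and Scn4a lie near it.

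Other genes share the ground with these 3. Gm10684, a long non-coding RNA gene on the minus strand, covers all 12289 bases of Scn2b, and it had 2 exonic reads in the 8 libraries. Gm17099 and BC049352, both on the plus strand, overlap Tmprss4 by 2165 and 22086 bases. No gene on the same strand overlaps any of the 3 in this annotation. The kit marks strand, and the counts of 369 genes that lie wholly inside a gene of the opposite strand were checked for how such reads were counted. In 369 of 369, whole-gene counts were at least as high as exon counts. This held for every gene in the tables, so it cannot tell strand settings apart. In 163 the enclosing gene had fewer reads than the enclosed one, so there the reads were not all counted for both genes. For the others, and for Tmprss4 and BC049352, the check does not show how reads in shared ground were assigned.

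BC049352 was lower in intronic reads. Its RefSeq start lies inside the longer span that the GENCODE annotation gives it, chr9:45182007-45250020. Its reads were almost all intronic: 13.5, 15.8, 13.5 and 17.4 CPM with DMSO and 5.79, 9.02, 6.72 and 11.1 CPM with dTAG-13. The groups did not overlap, as in 10.0% of genes tested for intronic reads with the treated group lower. The intronic log2 change was -0.87 (adjusted p = 0.00115, edgeR), lower in 4 of 4 treated libraries, where 8.50% of all genes were called lower. Exonic reads numbered 10, 25, 26 and 20 with DMSO and 10, 16, 7 and 19 with dTAG-13, so the groups overlapped, and the exonic log2 change of -0.79 (SE 0.42) did not pass (adjusted p = 0.175, edgeR). The difference of the exonic and intronic changes was 0.09 (adjusted p = 0.981, edgeR). The authors' deposited table gives BC049352 log2 changes of -0.17 (SE 0.28) in exonic and -0.77 (SE 0.22) in intronic reads. Binding of EBF1 at the match in its window was not tested.

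Few genes around the locus could be measured, and Kmt2a, Atp5l and Ube4a, the tested genes within 250 kb besides BC049352, had no log2 change beyond 0.10 in either direction. All of them lie on the Scn2b side, and Ube4a, the nearest, ends at chr9:44965600. Apart from BC049352, no gene closer to the locus or on the Tmprss4 side was tested. Within 250 kb on either side, 22 further genes were in the count tables, of which 13 had no exonic read in any library and 4 passed the filter. In exonic reads 1 of these 4 was higher and 0 were lower by edgeR, with 0 lower also at an unadjusted p below 0.05 and by DESeq2, and their median log2 change was 0.02. The count of 1 in 4 is near the 28.3% called among all genes. In intronic reads 1 of 4, BC049352, was lower and 0 were higher by edgeR, again 0 at an unadjusted p below 0.05 and by DESeq2, where 16.8% of all genes were called. Kmt2a, a histone methyltransferase gene, had log2 changes of -0.04 in exonic and -0.06 in intronic reads (adjusted p = 0.393 and 0.636, edgeR). Atp5l, which encodes a subunit of ATP synthase, had 0.07 and 0.05 (adjusted p = 0.48 and 0.776, edgeR).

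For Ube4a, a ubiquitin ligase gene, every treated library lay above every control in exonic reads, as in 14.2% of all tested genes. It was called higher by 0.10 (SE 0.04, adjusted p = 0.0379, edgeR). That call ended without any 1 of 7 of the 8 libraries, the exception being dTAG-13 replicate 3, and its adjusted p ranged from 0.0199 to 0.224 over all alternatives. Its intronic change was -0.09 (adjusted p = 0.467, edgeR). The T cell receptor partners Cd3g, Cd3d and Cd3e, which lie between Ube4a and Scn2b, and the protease gene Tmprss13 and the ion transport regulators Fxyd6 and Fxyd2 on the far side of Tmprss4 had no exonic read. Mpzl2 and Mpzl3 held a few reads each and were not tested. Il10ra, the gene of the interleukin-10 receptor alpha chain, did not pass the filter either. It had 0 intronic reads in every DMSO library and 1, 10, 7 and 4 in the dTAG-13 libraries. Without the filter Il10ra was called higher (adjusted p = 0.0131, edgeR). Cd3d and Gm10684 went the other way, with 18 and 22 intronic reads with DMSO and 1 and 4 with dTAG-13. Neither was called without the filter (adjusted p = 0.0758 and 0.204, edgeR). Widening the window to 500 kb gave 9 tested genes in exonic reads, of which 1 was higher and 0 were lower by edgeR, with a median of 0.07.

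**Figure D3:**
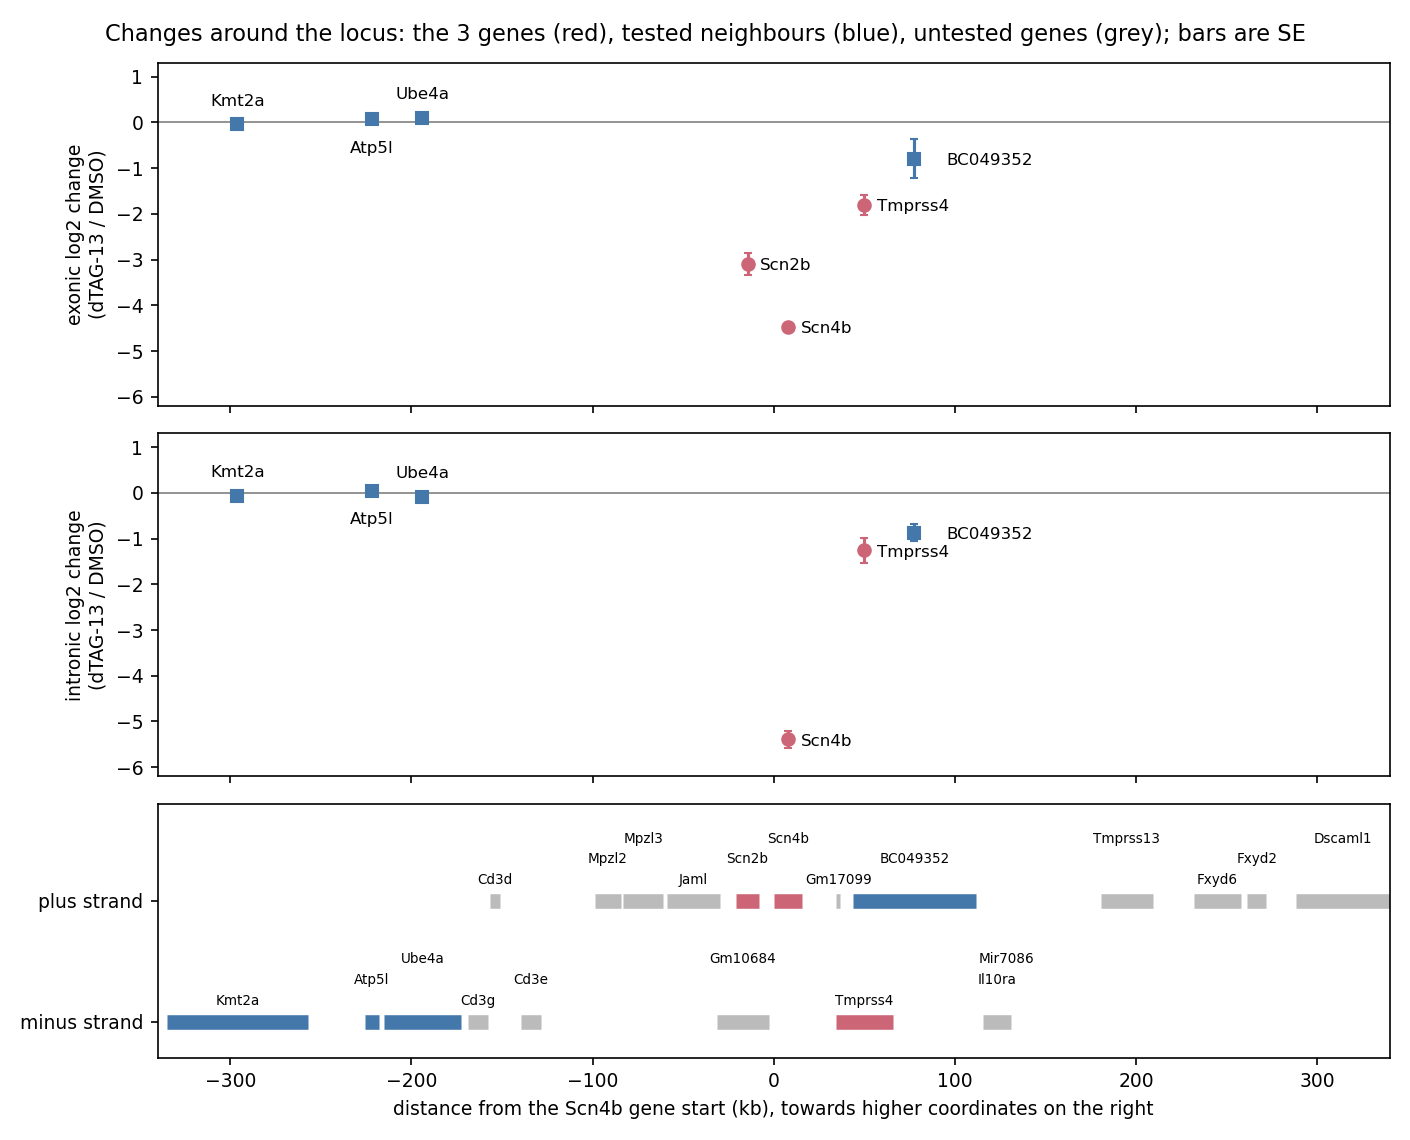
Exonic (top) and intronic (middle) log2 change, dTAG-13 over DMSO, with SE bars, against distance from the start of Scn4b in kb, and the gene spans on each strand (bottom). The 3 genes in red and BC049352 lie below 0, while Kmt2a, Atp5l and Ube4a lie within 0.10 of 0, and genes in grey had too few reads.

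The beta subunits act together with alpha subunits, of which the cells held RNA of Scn4a and almost none of the others. Of 10 alpha-subunit genes, 8 had no exonic read in any library, which allows up to 0.0765 to 0.104 CPM per library (3 reads, counting error only), and Scn1a had 2 reads in all. The alpha gene that passed the filter, Scn4a, encodes the subunit of skeletal muscle and lies on chromosome 11. It gave 5.11, 5.11, 5.42 and 4.46 CPM with DMSO and 7.99, 9.87, 8.88 and 10.1 CPM with dTAG-13. Every treated library was above every control, opposite in direction to Scn4b and Scn2b. The log2 change was 0.88 (SE 0.11, adjusted p = 8.19e-07, edgeR), higher in 4 of 4 treated libraries, while 14.2% of genes tested had groups that do not overlap with the treated group higher. Its intronic change of 0.92 did not pass (adjusted p = 0.0532, edgeR).

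Per kb of exon, Scn4a rose from 0.714 to 1.31 CPM, so it was far below Scn4b with DMSO and closer to it after dTAG-13. Scn2b, at 0.796 CPM per kb with DMSO and 0.0916 with dTAG-13, stood near Scn4a in the controls and well below it after treatment. Scn3b, another beta-subunit gene on chromosome 9, had 0 exonic reads.

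A list of 29 sodium channel genes and partners (the other alpha and beta subunits, anchoring and regulatory proteins and the proteases that cleave beta subunits) had 9 genes that passed the filter in exonic reads, of which 1 was lower, 2 were higher and 6 did not pass by edgeR. The share called is near the 28.3% of all genes. Their median log2 change was 0.03, near the -0.003 of all genes, and 14 of the 29 had no exonic read. Fgf13, an intracellular factor that binds alpha subunits, went from 15.5 ± 1.32 to 18.9 ± 1.25 CPM (SD, n = 4 each), a log2 change of 0.29 (adjusted p = 0.00402, edgeR). The call for Fgf13 ended with whole-gene counts, at a log2 change of 0.11 and an adjusted p of 0.617 by edgeR. Nedd4, a ubiquitin ligase that can remove channels from the membrane, fell from 171 ± 1.92 to 144 ± 4.75 CPM (SD, n = 4 each), a log2 change of -0.26 (adjusted p = 3.31e-06, edgeR), with an intronic change of -0.29 (adjusted p = 0.00368, edgeR). Its relative Nedd4l passed in intronic reads at -0.24 (adjusted p = 0.0243, edgeR) but not in exonic reads at -0.15 (adjusted p = 0.104, edgeR).

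Genes of the secretase that cleaves beta subunits within the membrane were expressed. Psen2, Ncstn, Aph1a and Psenen, which encode subunits of it, had log2 changes of -0.02, 0.06, 0.12 and 0.03, with adjusted p of 0.0769 or above by edgeR. Bace1, the other protease known to cleave them, held at most 11 exonic reads in a library and was not tested. In intronic reads 8 genes of the list passed the filter, of which 2 were lower (Nedd4 and Nedd4l) and 0 were higher by edgeR, with 1 higher at an unadjusted p below 0.05 and 1 by DESeq2. Among all genes tested for intronic reads 16.8% were called and 8.50% were lower.

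The relatives of Tmprss4 were for the most part not measurable in exonic reads. Of 22 transmembrane serine proteases, substrates and inhibitors, 12 had no exonic read and 1, St14, passed the filter. St14, the gene of the protease matriptase, held 46.3, 43.6, 48.0 and 50.9 CPM with DMSO and 59.0, 55.3, 58.1 and 53.4 CPM with dTAG-13. Its treated libraries all lay above the controls, as in 14.2% of all tested genes, and the reverse of Tmprss4. The log2 change was 0.26 (SE 0.05, adjusted p = 0.000197, edgeR) in exonic and 0.40 (adjusted p = 0.00189, edgeR) in intronic reads, higher in 4 of 4 treated libraries. Tmprss5, another protease of the family, was tested in introns only, at 4.66 ± 0.357 CPM with DMSO and 3.43 ± 0.835 CPM with dTAG-13 (SD, n = 4 each). Every treated library lay below the controls, as in 10.0% of genes, but the log2 change of -0.44 (SE 0.26) did not pass (adjusted p = 0.303, edgeR).

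**Figure D4:**
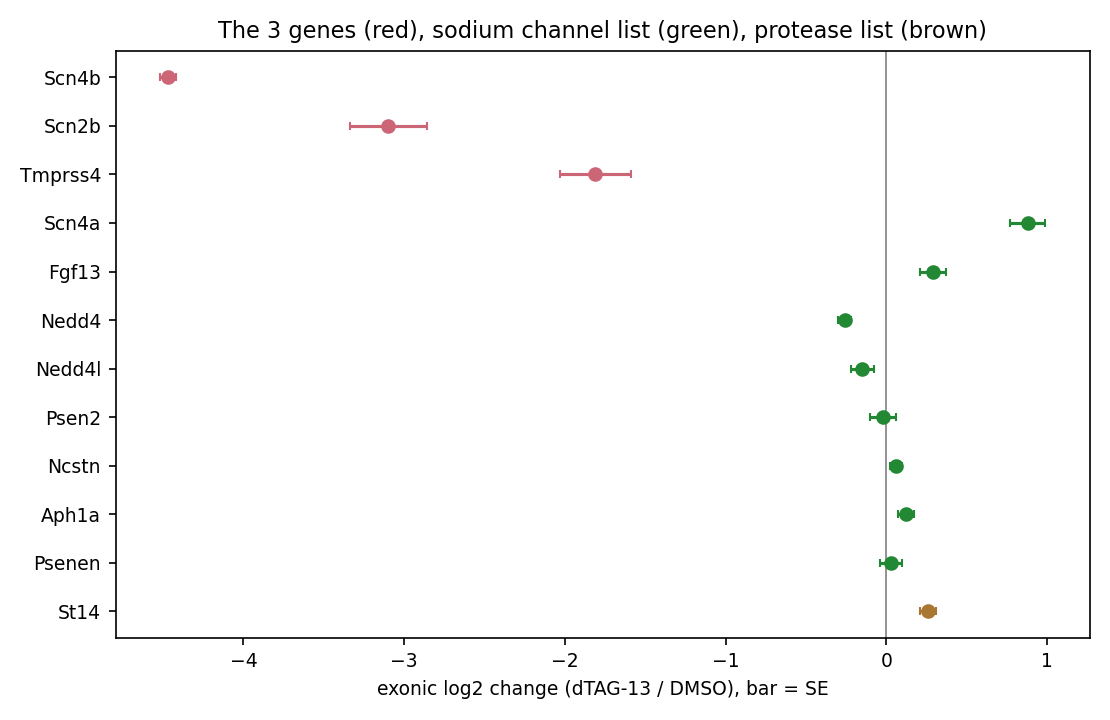
Exonic log2 change, dTAG-13 over DMSO, with SE bars, for Scn4b, Scn2b and Tmprss4 (red), 8 tested genes of the sodium channel list (green) and the tested gene of the protease list (brown). The red points lie between -4.47 and -1.81, whereas the other genes lie between -0.26 and 0.88.

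The genes whose levels across the 8 libraries were most like each of the 3 were found by the root mean square distance of log2 CPM (offset 0.1), taken relative to the mean of the controls. Those nearest to Scn4b were Gfra2 (distance 0.15), Apbb1 (0.17), Ret (0.32), Dlg2 (0.56) and Tmem132e (0.62), with log2 changes of -4.47, -5.12, -4.70, -4.84 and -5.81. Nearest to Scn2b were Vpreb2 (0.16), Rasgef1a (0.20), Ttll11 (0.23), Adgrg1 (0.26) and Megf10 (0.29), with log2 changes of -2.89, -2.91, -3.04, -2.59 and -2.83. Tmprss4 was nearest to Vpreb1 (0.08), Epb41l4b (0.10), Drc7 (0.12), Lef1 (0.13) and Tifa (0.13), with log2 changes of -1.63, -1.75, -1.69, -1.74 and -1.58. Vpreb1 and Vpreb2 encode surrogate light chains of the pre-B cell receptor, Gfra2 and Ret a receptor pair for neurturin, and Lef1 a transcription factor. None of the 15 lies on chromosome 9, but the 3 genes themselves were left out of the ranking. The share of all tested genes on that chromosome was not taken, so nothing follows from this. The likeness is mostly the size of the fall after the offset was added, since the 8 libraries hold 2 conditions only. The offset makes falls to low levels look smaller. With dTAG-13, Apbb1 and Dlg2 stood at 0.135 and 0.129 CPM, close to the offset, against 1.79 CPM for Ret. It also shrinks the falls of Scn2b and Tmprss4, at 0.427 and 0.849 CPM, so the ranks do not follow the log2 changes alone.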

How the data were processed

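Stranded sequencing libraries were prepared from total RNA depleted of ribosomal RNA, 4 for DMSO and 4 for dTAG-13, per the labels' protocols. Raw counts for each gene, over its exons and over its whole span, were deposited by the authors, per the labels. Per the submitters' processing notes, the tools include Subread 2.0.0, featureCounts, STAR 2.7.4a and DESeq2, and the builds named are GRCm38.p4 and mm10. The strand setting and annotation release are not given in the sources used here. A further table of the authors gives, per the file headers, their DESeq2 p-values, log2 changes and standard errors. Only the log2 changes and their errors were used.

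Intronic counts were whole-gene minus exon counts, and no difference was negative. They include retained introns and unannotated exons. Counts were tested with edgeR 4.0.16 (R 4.3.3), quasi-likelihood F test, TMM factors, filterByExpr at its defaults of 10 reads and a total of 15, treatment as the only term and Benjamini-Hochberg adjustment over all tested genes at 0.05. P-values set the difference between the groups against the spread between these libraries only. CPM is relative to TMM-scaled totals of exonic or of intronic reads, so total RNA per cell is not measured. Standard errors of log2 changes came from the fitted change and its F statistic. The exonic and intronic changes were compared in a model of 16 columns with the library as a block. Likeness between genes used log2 CPM with an offset of 0.1. Groups came from titles and treatment labels, and the labels name no batch. The scripts were tested on simulated data.

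The 3 genes, both gene lists, the markers, the windows of 250 and 500 kb and the alternatives were chosen with earlier results of these data known. Named genes were the 3 genes, named genes within 250 kb, genes of the lists and the 5 genes most like each of the 3. Some genes under this rule are not reported here. Alternatives were RLE factors, DESeq2 1.42.0, no filter, a mean of at least 1 CPM, the replicate block, library sizes without the ribosomal-RNA overlapping genes Gm26917 and Gm42418, whole-gene counts and leaving out each library. Of 47937 IDs, 47235 had a symbol, and 39192 carried the same version in GENCODE vM21 (GRCm38). Promoter sequences are from RefSeq (GRCm38.p6), which matched 2 of the 3 genes and has no entry for Tmprss4.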

Additional observations from a re-analysis of the deposited data

Results flagged for a closer look

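Among 44 groups of 4 libraries examined, 2 held a library far from the other three, and chance flags about 1 group in 20. Tmprss4 exonic reads stood at 2.46 CPM in DMSO replicate 4, where the nearest other control had 3.14 CPM. The gap was 0.944 of the group's range, and without this library the exonic log2 change was -1.89. Tmprss4 intronic reads stood at 7.26 CPM in DMSO replicate 2, with the nearest other control at 8.69 CPM and a gap of 0.844 of the range. The 2 libraries differ, and neither control reached the level of a treated library.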

How the results depend on the processing

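Over all alternatives the log2 changes stayed between -4.51 and -4.44 for Scn4b, -3.20 and -2.99 for Scn2b and -1.89 and -1.55 for Tmprss4 in exonic reads, and between -5.62 and -5.27 for Scn4b and -1.41 and -0.97 for Tmprss4 in intronic reads. The value of -1.55 came from whole-gene counts, in which intronic reads are included. No result changed sign. Without a low-count filter, the genes within 250 kb called were 0 in exonic and 2 in intronic reads (Il10ra, higher, beside BC049352, lower), and 110 genes passed for the exonic minus intronic change, against 28 with the filter. Leaving out a library gave 0 to 1 called neighbours in exonic reads and 11 to 25 genes for that difference, from fewer samples. BC049352 passed in intronic reads under every alternative (-1.06 to -0.73), and Scn4a in exonic reads (0.82 to 0.94). With whole-gene counts BC049352 passed at -0.86 (adjusted p = 0.00839, edgeR). Same-numbered libraries did not deviate together (correlations of 0.09, -0.02, -0.07 and 0.05; 2 of 4 correlated best with their own number), so the numbers were not taken to pair samples. With the replicate block the exonic log2 changes were -4.47, -3.11 and -1.81 for Scn4b, Scn2b and Tmprss4, the intronic ones -5.40 for Scn4b and -1.32 for Tmprss4, and 3753 exonic and 1937 intronic genes were called. The block and DESeq2 were not run for the exonic minus intronic change, whose model already has the library as a block. Depth limits Scn2b, with 64 exonic reads in 4 treated libraries, and its introns most.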
